A study of Mus musculus with 9 samples.

Results

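The genes described here supply, build and modify fatty acids, and were followed in the tibialis anterior muscle of mice given dexamethasone (DEX), a synthetic glucocorticoid, with or without a turmeric extract (TE) in the diet. They are Acly, Me1, Acaca, Acacb, Fasn, Elovl6, Scd1, Scd2, Gpam and Srebf1. A member is any probe set, meaning a group of short oligonucleotides on the array that together report 1 transcript, whose platform annotation carries exactly 1 gene symbol and that symbol is 1 of these 10. The rule found 24 probe sets for the 10 genes among 45037 on the array, of which 34945 carry exactly 1 symbol.

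The data were 9 arrays, 1 per mouse and 3 per group, all from male C57BL/6J mice aged 15 weeks on an AIN93-based diet, caged singly with free access to food. Control mice received saline, and DEX mice received 5 mg/kg body weight of DEX, by daily intraperitoneal injection for 7 days. DEX+TE mice received the same injections and 2% TE in the diet, which the growth protocol starts 5 days before the first injection, whereas the sample titles call the extract a treatment after DEX. No array came from a mouse given TE without DEX, so TE is seen only on top of DEX. The study's methods state that the mice put on arrays were those with body and muscle weight near the average of their group, so the spread between arrays may be narrower than between mice in general.

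The values are array signals on a linear, arbitrary scale on which every array has the same trimmed mean. They are given per array as deposited and were tested as log2 values, so that a log2 fold change of 1 is a doubling. A probe set was tested if the mean of its log2 signal reached that of a signal of 50 in at least 1 group, which left 29269, and was said to pass when the adjusted p was under 0.05 and the log2 fold change was at least 0.6 in either direction. The 10 skeletal muscle markers gave a summed signal of 558498 to 744713 in control, 423736 to 527453 in DEX and 515557 to 563122 in DEX+TE muscle. All 10 means were lower in DEX than in control, with a median log2 fold change of -0.44 against -0.025 over all probe sets tested. Of the 10, 8 had an unadjusted p under 0.05 in the same test (limma), where 8.33% of all were lower at that p. These markers moved together by array and are not separate observations. For all but Myh2, control replicate 1 was the highest and DEX replicate 1 the lowest of the 9 arrays. All 10 means were also lower in DEX+TE than in control, with a median of -0.23. After adjustment 0 of the 10 passed in any of the 3 comparisons, where 0.502% or fewer of all probe sets did. The array medians ran from 71.3 to 77.7 in DEX and from 84.7 to 95.003 in DEX+TE, so centring the arrays on their medians turned the median log2 difference between these groups over all probe sets tested from 0.055 to -0.199.

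Fatty acid synthesis takes place in the cytosol. ATP-citrate lyase (Acly) turns exported citrate into acetyl-CoA and malic enzyme (Me1) helps to supply NADPH, acetyl-CoA carboxylases (Acaca, Acacb) make malonyl-CoA, and fatty acid synthase (Fasn) joins these units into palmitate, which elongases such as Elovl6 lengthen, stearoyl-CoA desaturases (Scd1, Scd2) render monounsaturated and Gpam starts to assemble into glycerolipids. Liver and fat are the main sites of the pathway, and in muscle Acacb is known mainly for malonyl-CoA that restrains fatty acid entry into mitochondria, while Srebf1 encodes SREBP-1, a transcription factor that drives many of these enzymes.

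The data show higher signals of Fasn, Srebf1, Acaca and Acly in DEX than in control muscle, with no overlap between the 3 arrays of each group. In Acly this held for 1439459_x_at alone, a set that is its brightest only through the groups given DEX. In DEX+TE against control muscle, Fasn, Srebf1, Acly and Scd1 had higher signals, again without overlap. Me1 and Gpam had lower ones without overlap, by small log2 fold changes of -0.14 and -0.21 with intervals that span 0. The second Gpam probe set had 0.08. Of all probe sets tested, 9.07% were higher without overlap in the first comparison, and 12.4% higher and 10.3% lower in the second. At that last share, 2 of 10 genes lower says little of the members. By the brightest probe set of each gene, the largest differences from control were those of Fasn, 2.84-fold in DEX, and of Scd1, 2.78-fold in DEX+TE muscle. Of the 20 member probe sets tested, 0 passed in any comparison, where 0.502% (DEX against control), 0.0137% (DEX+TE against DEX) and 0.379% (DEX+TE against control) of all did. At such rates a count of 0 in 20 says nothing particular of the members. The adjusted p closest to the threshold was 0.0568, for Fasn in DEX against control. Tecr, the enoyl reductase of fatty acid elongation and not a member, was the only gene of 4 related lipogenic lists that passed, 2.28-fold higher in DEX and 2.04-fold higher in DEX+TE than in control muscle.

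The letters in front of Fasn and Srebf1 are shown because SREBP-1 acts together with NF-Y at promoters of lipogenic genes. Among the members, Fasn had the largest difference between DEX and control muscle, and Srebf1 is the only regulator. RefSeq windows of 250 bases before the annotated start, on GRCm38.p6, were at hand for 8 of the 10 members, 12 windows in all, since Me1, Gpam and Srebf1 have several starts. The Fasn window is chr11:120824548-120824797 and the Srebf1 window, that of the start farthest downstream, is chr11:60210472-60210721, both on the minus strand. Capitals mark CCAAT, the box bound by NF-Y, and TCACCC, the core of the sterol response element that SREBP binds, each on either strand.
Fasn: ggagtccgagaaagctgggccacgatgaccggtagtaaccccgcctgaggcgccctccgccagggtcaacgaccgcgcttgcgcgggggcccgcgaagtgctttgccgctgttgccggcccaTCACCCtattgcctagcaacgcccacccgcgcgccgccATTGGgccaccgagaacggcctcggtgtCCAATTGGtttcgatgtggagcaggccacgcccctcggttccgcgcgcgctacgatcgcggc
Srebf1: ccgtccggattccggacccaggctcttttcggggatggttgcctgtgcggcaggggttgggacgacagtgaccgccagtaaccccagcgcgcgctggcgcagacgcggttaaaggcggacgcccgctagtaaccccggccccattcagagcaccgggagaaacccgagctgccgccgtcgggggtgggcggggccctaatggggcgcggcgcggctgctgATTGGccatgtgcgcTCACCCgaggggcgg

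The Fasn window held 3 CCAAT matches, a pair of which overlap, and 1 TCACCC match, and the Srebf1 window held 1 of each. The Srebf1 windows not shown held fewer, with neither motif in chr11:60220628-60220877 and 1 CCAAT without TCACCC in chr11:60222582-60222831. Over the members, CCAAT stood in 6 of 12 windows against 33.8% of all 32851 windows of the same length, and TCACCC in 4 of 12 against 13.8%. The GC box GGGCGG stood in 5 of 12 windows against 32.7%, the E-box CACGTG in 0 of 12 against 6.02%, and AGAACA, part of the site of the glucocorticoid receptor, in 1 of 12, that of Acaca, against 16.1%. These counts describe letters in a window and were not tested, and the probe sets were not matched to particular starts. Scd1 and Scd2 have no window.

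**Figure D1:**
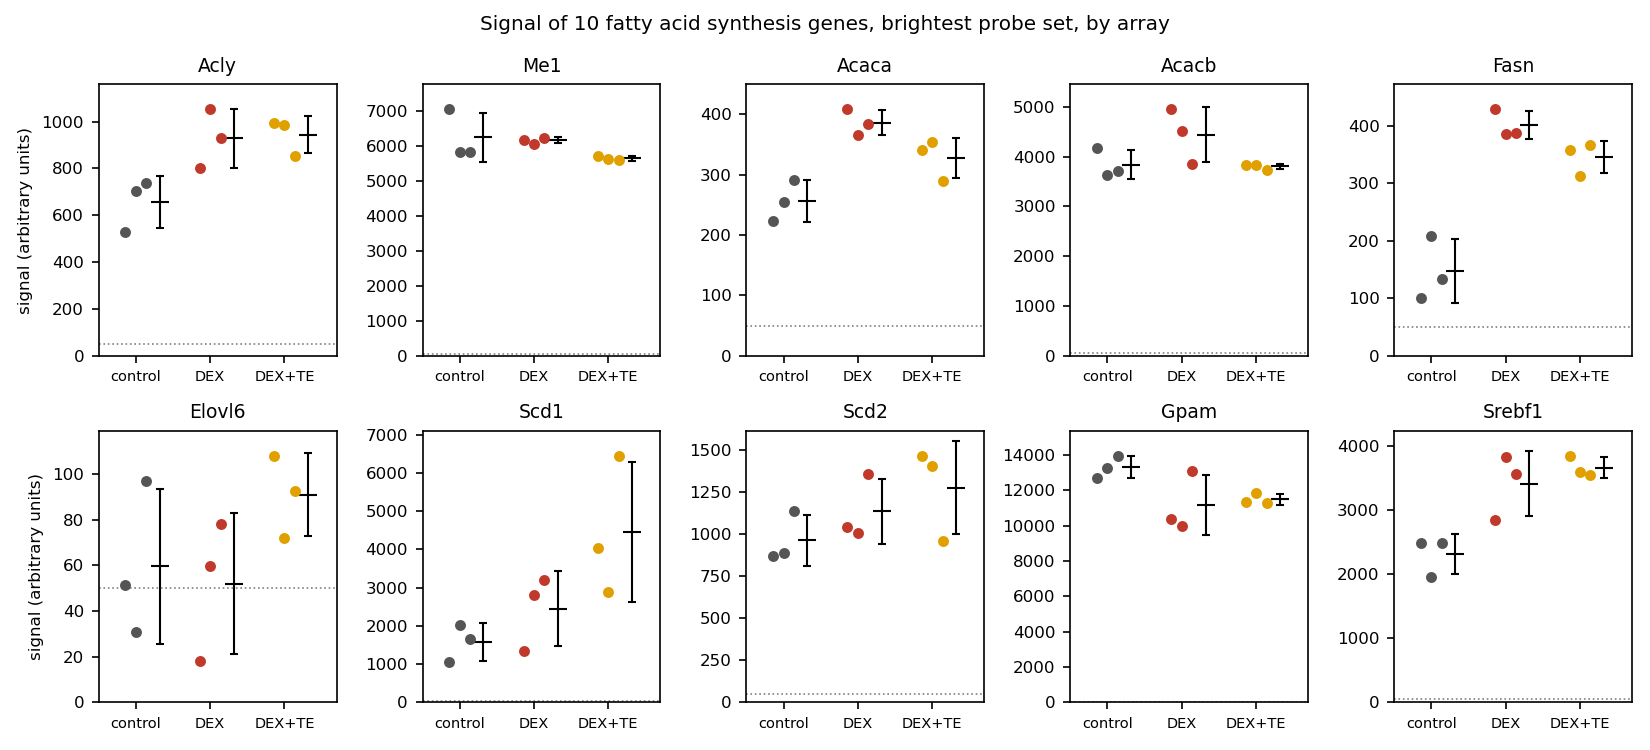
Signal of the brightest probe set of each of the 10 genes, in arbitrary units on a linear axis from 0, with 1 point per array, the group mean and its SD (n = 3 mice per group) and a dotted line at a signal of 50. Fasn, Srebf1, Acaca and Acly show all 3 DEX points above all 3 control points, and Scd1 shows 1 DEX point among the controls.

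Each gene is described by its brightest probe set, the one with the highest mean log2 signal over the 9 arrays, and the others follow where they differ. Fasn, reported by a single probe set (1423828_at), gave signals of 101, 208 and 134 in control, 429, 387 and 388 in DEX and 358, 313 and 366 in DEX+TE muscle. Every DEX and DEX+TE array was higher than every control array, and the DEX+TE arrays all lay below the DEX arrays. The log2 fold change was 1.51 ± 0.24 (SE, n = 3 per group) in DEX against control (95% interval 0.93 to 2.08, adjusted p = 0.0568) and 1.29 ± 0.24 in DEX+TE against control (0.72 to 1.86, adjusted p = 0.0969). The order was control, DEX+TE, DEX, and the last pair did not differ beyond their error, at -0.22 (-0.79 to 0.35, adjusted p = 0.86).

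The Fasn result lay near the threshold and its side depended on the fit. In DEX against control the adjusted p was 0.0257 without control replicate 2, the control with the highest signal, and the log2 fold change was then 1.79. In DEX+TE against control they were 0.0353 and 1.57 without that array. Leaving out control replicate 3 gave an adjusted p of 0.161 and 0.194 instead. Over all 17 limma alternatives the adjusted p ran from 0.00331 to 0.189 in DEX, with 13 of them not calling Fasn, and from 0.0116 to 0.251 in DEX+TE, with 14 not calling it. The study's own tables list genes under FoxO3 and IGF1, categories from its upstream analysis, and not all changed genes. Fatty acid synthase is there under FoxO3, as higher in DEX than in control. Stearoyl-CoA desaturase is there under IGF1, as higher in DEX+TE than in DEX. In those comparisons neither passed here by the main limma fit or by Rank Product, the kind of test that the study's methods name. The Rank Product false discovery rate was 0.254 for Fasn, and 0.676 and 0.794 for the Scd1 sets. The study's methods name another normalization than that of the values used here. Its tables are drawn from these same arrays and are no independent evidence of direction.

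Srebf1 (1426690_a_at), the regulator, gave signals of 2487, 1959 and 2492 in control, 2846, 3822 and 3565 in DEX and 3845, 3590.5 and 3538 in DEX+TE muscle. All 6 arrays of mice given DEX were higher than the 3 controls, and the DEX and DEX+TE arrays overlapped. Against control, the log2 fold change was 0.56 (95% interval 0.21 to 0.91, adjusted p = 0.167) in DEX and 0.67 (0.32 to 1.02, adjusted p = 0.141) in DEX+TE, and it was 0.11 (-0.24 to 0.46) between DEX+TE and DEX. The probe set was not assigned here to the SREBP-1a or the SREBP-1c transcript.

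Of the enzymes that supply the pathway, Acly was higher after DEX by its brightest probe set and Me1 was close to its control level. Acly (1439459_x_at) gave 529.8, 704 and 739 in control, 802, 1053 and 930.3 in DEX and 994, 985 and 852 in DEX+TE muscle, so that neither DEX group overlapped the control. Its log2 fold change was 0.50 (95% interval 0.11 to 0.89, adjusted p = 0.237) in DEX and 0.53 (0.14 to 0.92, adjusted p = 0.24) in DEX+TE. The other well-measured Acly probe sets differed less, with 0.08 and 0.13 for 1451666_at and 0.23 and 0.28 for 1425326_at, and the suffix _x_at marks a set whose oligonucleotides may also match other transcripts. In control the mean log2 signal was 9.35 for 1439459_x_at and 9.60 for 1451666_at. The former is thus the brightest over the 9 arrays only through the groups given DEX.

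Me1 (1430307_a_at), which was bright on every array, gave 7063, 5850.3 and 5845 in control, 6192, 6072 and 6244 in DEX and 5729, 5633 and 5606 in DEX+TE muscle. The DEX+TE arrays were the lowest of the 9, without overlap. Its log2 fold change was -0.01 (-0.26 to 0.23) in DEX against control and -0.14 (-0.38 to 0.10) in DEX+TE against control. The second Me1 probe set (1416632_at) had -0.03 and -0.26.

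The carboxylases differed in pattern. Acaca (1434185_at), the isoform of lipogenic tissue, gave 223, 255 and 292 in control, 408, 366 and 384 in DEX and 340.0, 353 and 289.6 in DEX+TE muscle. The DEX arrays stood above both other groups, and 1 DEX+TE array fell within the control range. For Acaca the log2 fold change was 0.60 (95% interval 0.28 to 0.91, adjusted p = 0.117) in DEX against control, 0.36 (0.04 to 0.67, adjusted p = 0.317) in DEX+TE against control and -0.24 (-0.55 to 0.08, adjusted p = 0.715) in DEX+TE against DEX. The other Acaca probe set (1427595_at) ran from 25.0 to 103, around the limit of 50, and was not informative.

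Acacb (1427052_at), the isoform of oxidative tissue, gave 4176, 3624 and 3713 in control, 4952, 4514 and 3859 in DEX and 3830.2, 3838 and 3738 in DEX+TE muscle. The DEX and control arrays overlapped, and the DEX+TE arrays lay just below the lowest DEX array. For Acacb the log2 fold change was 0.21 (-0.07 to 0.49) in DEX against control, -0.22 (-0.50 to 0.06) in DEX+TE against DEX and -0.01 (-0.29 to 0.27) in DEX+TE against control.

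Scd1, the desaturase that makes oleate and palmitoleate, had its highest mean in DEX+TE muscle and a wide spread within groups. Its brighter probe set (1415964_at) gave 1045, 2026 and 1657 in control, 1340.0, 2811 and 3189 in DEX and 4049, 2878 and 6451 in DEX+TE muscle. DEX replicate 1 lay among the controls and the DEX and DEX+TE arrays overlapped, whereas every DEX+TE array was above every control. The log2 fold change was 0.59 (95% interval -0.43 to 1.61, adjusted p = 0.581) in DEX against control, 0.88 (-0.14 to 1.90, adjusted p = 0.689) in DEX+TE against DEX and 1.47 (0.45 to 2.50, adjusted p = 0.222) in DEX+TE against control. Single arrays moved the first pair by over 1.5 times. Without DEX replicate 1 they were 0.98 and 0.50, without control replicate 1 or DEX replicate 3 the first was 0.32 or 0.35, and without DEX+TE replicate 3 the second was 0.58.

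The dimmer Scd1 probe set (1415965_at) gave 106, 159 and 103, then 93.0, 264 and 263, then 329, 268 and 340.3 in the same order of groups and replicates. DEX replicate 1 was again the lowest of its group, so the spread of Scd1 among DEX mice was shared by both sets, and here the DEX+TE arrays were above all DEX arrays. Its log2 fold changes were 0.64, 0.74 and 1.37 in the same 3 comparisons. Scd2 (1415822_at), the paralog known from brain and embryonic tissue, gave 867 to 1137 in control, 1006 to 1358 in DEX and 957 to 1466 in DEX+TE muscle, with overlap between all groups and log2 fold changes of 0.24, 0.16 and 0.39.

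Elovl6, which lengthens palmitate to stearate, was near the limit of detection. Its brightest probe set (1417404_at) ran from 17.9 to 108 over the 9 arrays, with 7 of them at 50 or more, and the log2 fold change of 1.03 in DEX+TE against DEX had an interval of -0.39 to 2.46. Nothing can be said of its level in the groups at this signal.

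Gpam (1419499_at), the mitochondrial acyltransferase that begins glycerolipid assembly, was bright on every array. It gave 12710.2, 13245 and 13965 in control, 10386, 9971 and 13112 in DEX and 11359, 11839 and 11260.1 in DEX+TE muscle. The DEX+TE arrays did not overlap the control, and DEX replicate 3 fell within the control range. Gpam had a log2 fold change of -0.26 (-0.55 to 0.03, adjusted p = 0.388) in DEX and -0.21 (-0.50 to 0.08, adjusted p = 0.489) in DEX+TE, both against control, while the second Gpam probe set (1425834_a_at) had -0.01 and 0.08.

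The 4 member probe sets left over, 2 of Acly, 1 of Acacb and 1 of Elovl6, were too dim to be tested. Another of low signal, Acly 1438389_x_at, was tested but reached 50 on 5 of 9 arrays. By Rank Product, the kind of test that the study's methods name, it came closest of the members to the threshold, with a false discovery rate of 0.0504 for a lower signal in DEX+TE than in control, where its DEX+TE arrays read 28.1, 0.274 and 73.8.

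**Figure D2:**
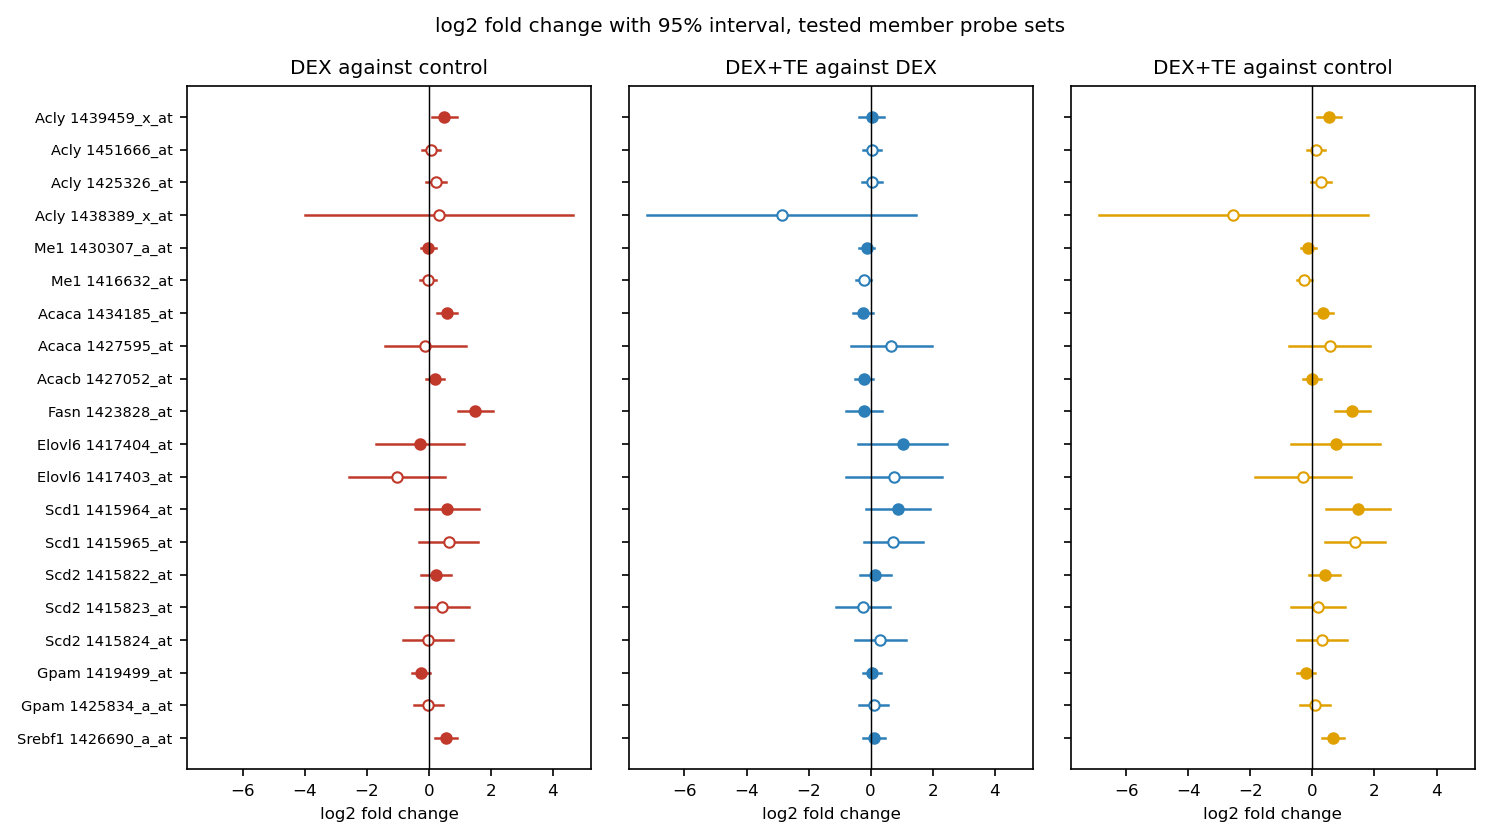
The log2 fold change (horizontal axis) of the 20 member probe sets tested, with the 95% interval, in each comparison of groups of 3 arrays, filled for the brightest probe set of a gene. The intervals of the brightest sets of Fasn, Srebf1, Acaca and Acly lie above 0 in both comparisons against control, none of the 20 passed the adjusted test, and the widest bars belong to Acly 1438389_x_at.

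Counted over the 20 probe sets tested, DEX against control gave 0 calls by limma, where 0.502% of all 29269 passed, and 0 by Rank Product, where 0.28% did. Without adjustment, 4 members had a higher signal at p under 0.05, 1 each for Fasn, Acaca, Acly and Srebf1, against 6.1% of all probe sets, and 0 had a lower one, against 8.33%. The same 4 were higher without overlap between groups, against 9.07% of all, and 0 were lower without overlap, against 12.1%. The median log2 fold change of the 10 brightest probe sets was 0.37 against -0.025 over all tested. It includes the Acly set that is brightest only through the groups given DEX.

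In DEX+TE against DEX, 0 members passed by limma, where 0.0137% of all did, 0 passed by Rank Product, where 0.164% did, and 0 had an unadjusted p under 0.05, where 7.76% did. The brightest sets of Fasn, Acaca and Acacb and both of Me1, 5 in all, were lower without overlap against 4.75% of all, and 1, the dimmer Scd1 set, was higher against 10.1%. The median of the 10 was 0.04 against 0.05 over all. Where the arrays were centred on their medians, the log2 fold changes of Acly, Srebf1, Scd2 and Gpam in this comparison turned from 0.03, 0.11, 0.16 and 0.05 to -0.22, -0.14, -0.10 and -0.20, with the shift that all probe sets then share.

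In DEX+TE against control, 0 members passed by limma, where 0.379% of all did, and 0 by Rank Product, where 0.458% did. At an unadjusted p under 0.05, 6 were higher, both of Scd1 and 1 each of Fasn, Srebf1, Acly and Acaca, against 7.95% of all, and 1, a Me1 set, was lower against 5.84%. Without overlap, 6 were higher, both sets of Scd1, 2 of Acly, and Fasn and Srebf1, against 12.4%, and 3 were lower, both of Me1 and 1 of Gpam, against 10.3%. The median of the 10 was 0.46 against 0.05 over all, with the same limit for Acly. Each pair of comparisons shares the arrays of 1 group, so their counts are not independent of each other, and probe sets of 1 gene report the same RNA.

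Around the members, 4 lists of related lipogenic genes, each gene taken by its brightest probe set, held 1 gene that passed. Tecr (1429681_a_at), which catalyses the last reduction in the cycle that lengthens long fatty acids, gave 6983, 7273 and 6648 in control, 16328, 15727 and 15620.3 in DEX and 13925, 13897 and 14848 in DEX+TE muscle. The 3 groups did not overlap, with DEX highest. Tecr rose by a log2 fold change of 1.19 ± 0.09 (95% interval 0.99 to 1.40, adjusted p = 0.00403) in DEX and of 1.03 ± 0.09 (0.82 to 1.23, adjusted p = 0.00686) in DEX+TE against control, and the difference of -0.16 (-0.37 to 0.04) between DEX+TE and DEX did not pass.

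The second Tecr probe set (1416352_s_at) gave 1.25, -0.20 and 1.05 in DEX against control, DEX+TE against DEX and DEX+TE against control. Over the limma alternatives, the adjusted p of Tecr ran from 4.51e-07 to 0.0546 in DEX, the highest with only the 6 arrays compared in the fit, and from 2.22e-06 to 0.0631 in DEX+TE, the highest with a replicate block. It lay under 0.05 in every other limma fit. Rank Product did not call Tecr, with a false discovery rate of 0.323 in DEX and 0.431 in DEX+TE against control.

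Of the 12 elongation and desaturation genes measured outside the members, Tecr was the 1 that passed in each comparison against control, 0 were called lower, and the list's median was -0.07, 0.12 and 0.16 in DEX against control, DEX+TE against DEX and DEX+TE against control. Hacd1, the dehydratase of the same cycle that is abundant in muscle, had a log2 fold change of -0.56 (-0.85 to -0.27, adjusted p = 0.113) in DEX and -0.59 (-0.88 to -0.30, adjusted p = 0.119) in DEX+TE against control. Scd3, another desaturase, gave 65.6, 78.4 and 93.1 in control, 59.8, 40.1 and 64.4 in DEX and 119, 85.8 and 123 in DEX+TE muscle, and 1.01 (0.45 to 1.56, adjusted p = 0.399) in DEX+TE against DEX. Hacd1 and Scd3 were chosen after their values were seen.

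Of the 12 genes of substrate and NADPH supply, 0 passed in any comparison, with medians of -0.05, -0.0012 and -0.11. Pgd, the pentose phosphate dehydrogenase that yields NADPH, had the largest differences from control, 0.72 (0.32 to 1.12, adjusted p = 0.127) in DEX and 0.68 (0.29 to 1.08, adjusted p = 0.163) in DEX+TE. Me2, a mitochondrial malic enzyme, followed with -0.70 and -0.58, and Tkt, transketolase, had 0.46 in DEX against control and -0.43 in DEX+TE against DEX.

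Of the 10 triglyceride assembly genes tested among 13, 0 passed, with medians of 0.11, 0.01 and 0.20. Gpat3, a glycerol-3-phosphate acyltransferase of the endoplasmic reticulum, had -0.67 and -0.61 in DEX and DEX+TE against control, Lpin2, a phosphatidate phosphatase, had 0.72 in DEX+TE against DEX, and Mogat1 had 1.15 in DEX against control with an interval of -1.45 to 3.75 at a signal near 50. Gpat2, Lpin3 and Mogat2 were too dim to be tested.

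Of the 21 regulators of lipogenesis, 0 passed, with medians of 0.04, -0.03 and 0.03. Nr1h3, which encodes the liver X receptor alpha that induces Srebf1, gave 160.4, 106 and 181 in control, 315, 239 and 263 in DEX and 296, 277 and 260.3 in DEX+TE muscle. Its control arrays lay below all 6 others, and the log2 fold change was 0.89 (0.40 to 1.38, adjusted p = 0.126) in DEX and 0.93 (0.44 to 1.42, adjusted p = 0.141) in DEX+TE. Mid1ip1, which promotes the assembly of acetyl-CoA carboxylase, had -0.49 and -0.66 against control, Trib3 had -0.52 in DEX, Mlx had 0.55 in DEX+TE, and in DEX+TE against DEX the largest were Pnpla3 with 0.59, Srebf2 with -0.44 and Mlxip with -0.35, the last of these with an adjusted p of 0.59.

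**Figure D3:**
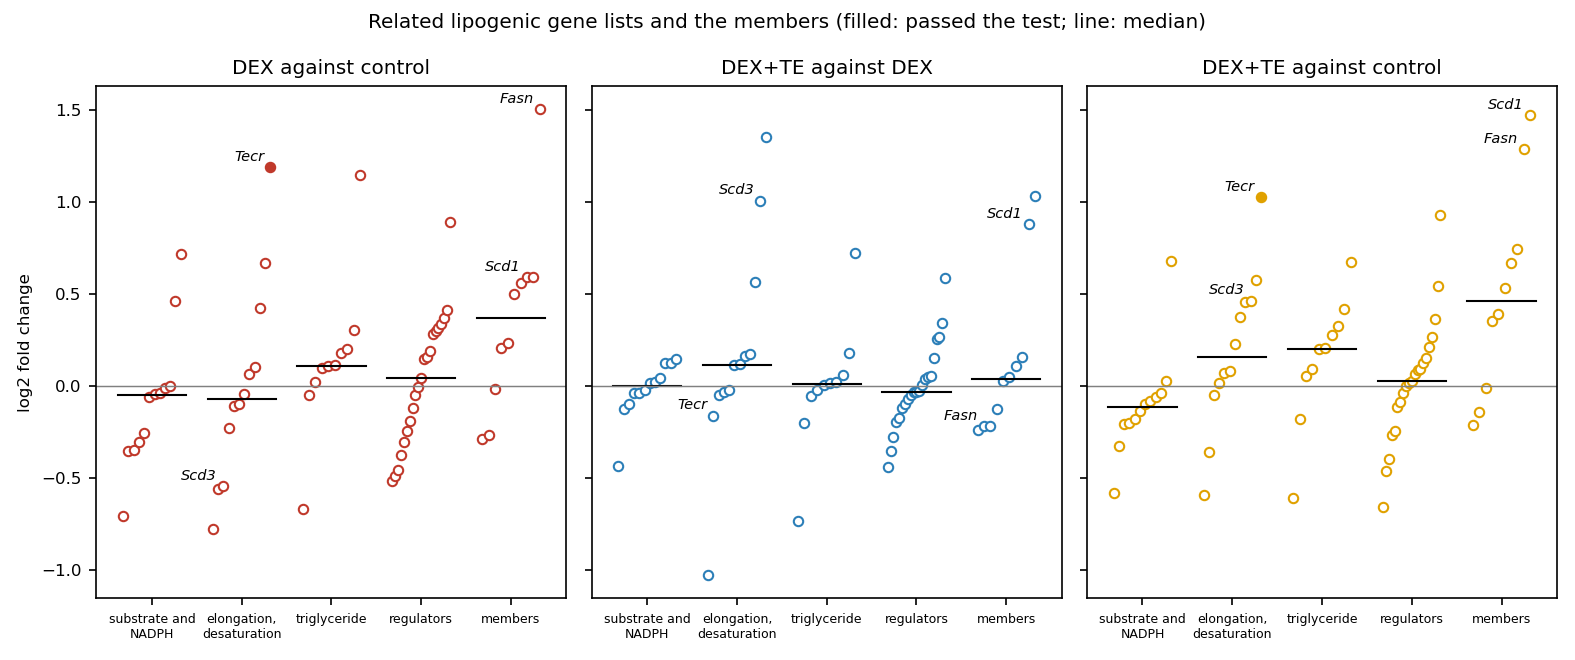
The log2 fold change of each tested gene of 4 related lists and of the 10 members, by the brightest probe set, with the list's median as a line. Filled points, those of Tecr, are the only ones that passed the test, and all 10 members are open points, of which Fasn is the highest in DEX against control at 1.51 and Scd1 in DEX+TE against control at 1.47.

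A whole muscle holds some fat cells, and in bulk tissue more cells of a type and more RNA per cell cannot be told apart. Of all probe sets tested, 0.502% passed in DEX against control, 0.0137% in DEX+TE against DEX and 0.379% in DEX+TE against control. Of 12 adipocyte markers, 9 carry a probe set of 1 symbol. Of these, 0 passed in DEX against control, 0 in DEX+TE against DEX and 2 in DEX+TE against control. Those were Adipoq, the fat cell hormone adiponectin, with 268, 371 and 441 in control, 867, 721 and 905 in DEX and 1165, 2049.7 and 1761 in DEX+TE muscle, and Retn, resistin, with 127, 142 and 178, then 384, 278 and 356, then 401, 440.2 and 608. For both, the 3 groups did not overlap and the order was control, DEX, DEX+TE.

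Adipoq rose by a log2 fold change of 2.19 (1.59 to 2.80, adjusted p = 0.0261, range over the limma alternatives 0.000144 to 0.092) and Retn by 1.69 (1.19 to 2.18, adjusted p = 0.0321, range 0.00103 to 0.097) in DEX+TE against control. Rank Product called neither, with false discovery rates of 0.14 and 0.217, and the call was also lost under 9 and 11 of 17 limma alternatives, among them for both the fits without control replicate 1 or 2, DEX replicate 1 or 3, or DEX+TE replicate 2 or 3, and for Retn also those without control replicate 3 or DEX+TE replicate 1. In DEX against control they had 1.23 (adjusted p = 0.103) and 1.19 (adjusted p = 0.0699).

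The list's median log2 fold change was 0.50, 0.50 and 1.31 in the 3 comparisons. Lep, leptin, gave 51.8 to 64.1 in control, 67.7 to 90.1 in DEX and 115 to 191 in DEX+TE muscle, just above 50 in control, and Cidec, of the lipid droplet, gave 22.2 to 50.001 in control, 72.3 to 99.6 in DEX and 99.9 to 168 in DEX+TE muscle. Pck1, which fat and liver use in glyceroneogenesis and gluconeogenesis, gave 18.7 to 63.4, 81.3 to 163 and 181 to 245 in the same order. Lep, Cidec and Pck1 were thus low but measurable in muscle given DEX, with lower signals than Adipoq and Retn. Cidec and Pck1 were around or under 50 in control. Cfd, Plin1 and Adrb3 were not analysed here. The summed signal of the 9 genes was 24256 to 28279 in control, 21426 to 24532 in DEX and 24180.0 to 26832 in DEX+TE muscle, most of it from Fabp4, which capillary endothelium of muscle also makes, and Plin4, which muscle fibres also make. Without that pair it was 868 to 1372, 1771 to 2064 and 2561 to 3672, without overlap. Adipoq alone gave a mean of 1659 of the mean sum of 3231 in DEX+TE muscle. Fabp4 was lower in DEX than in control without overlap, at a log2 fold change of -0.40 (adjusted p = 0.208). Plin4 had 0.43 in DEX against control and -0.34 in DEX+TE against DEX. Cidea and Lipe overlapped between all groups, with 0.50 and -0.05 in DEX against control.

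The members and these markers moved side by side in part. Fasn and Acaca had their highest mean signal in DEX muscle, whereas Adipoq, Retn and Scd1 had theirs in DEX+TE muscle. DEX replicate 1 was lowest of its group for Scd1 at 1340.0. It was also lowest for Pck1 (81.3) and Fabp4, highest for Retn (384), Plin4 and Cidea, and in between for Adipoq (867), Lep, Cidec and Lipe. DEX+TE replicate 3 was highest of its group for Scd1 at 6451. It was also highest for Retn (608), Lep (191), Pck1 (245), Cidea, Fabp4 and Lipe, but not for Adipoq (1761), Plin4 or Cidec (99.9). The part of adipocyte RNA in the Fasn, Srebf1 and Scd1 signals was not tested.

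Of the markers of other cells, 3 of 8 fibroblast genes, Col1a1, Col1a2 and Pcolce, fell in DEX against control by the limma test, which called 0.502% of all probe sets in either direction, and 0 of 8 passed in the other comparisons. Rank Product called none of the 3, with false discovery rates of 0.187, 0.113 and 0.353. None of the 5 Schwann cell, 6 endothelial and 6 tested leukocyte markers passed in any. The neutrophil genes S100a8 and S100a9 had the same order of means as Fasn. S100a8 gave 57.2 to 105 in control, 176 to 345 in DEX and 111 to 249.8 in DEX+TE muscle. S100a9 was under 50 on all control arrays and at 67.5 to 252 on the others. The other 4 tested leukocyte markers went the other way in DEX against control. Ptprc, Cd68, Adgre1 and Csf1r had log2 fold changes of -0.35, -0.79, -0.14 and -0.41, each with an interval that spans 0. All 4 had a higher mean in DEX+TE than in DEX muscle. The summed fibroblast signal was 30657 to 45686 in control, 18618 to 21924 in DEX and 28067 to 29997 in DEX+TE muscle, opposite in order to Fasn. Most of it came from Dcn and Col1a2, with means of 21173 and 11302 of a mean sum of 39884 in control. Of the 8 fibroblast genes, 7 had a log2 fold change below 0 in DEX against control, of which Pdgfra was near 0 at -0.04. Fbln1 went the other way, with 0.73 in DEX (adjusted p = 0.262) and 1.12 in DEX+TE (adjusted p = 0.148) against control by limma. The part of these cells in the members' values was not tested.

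**Figure D4:**
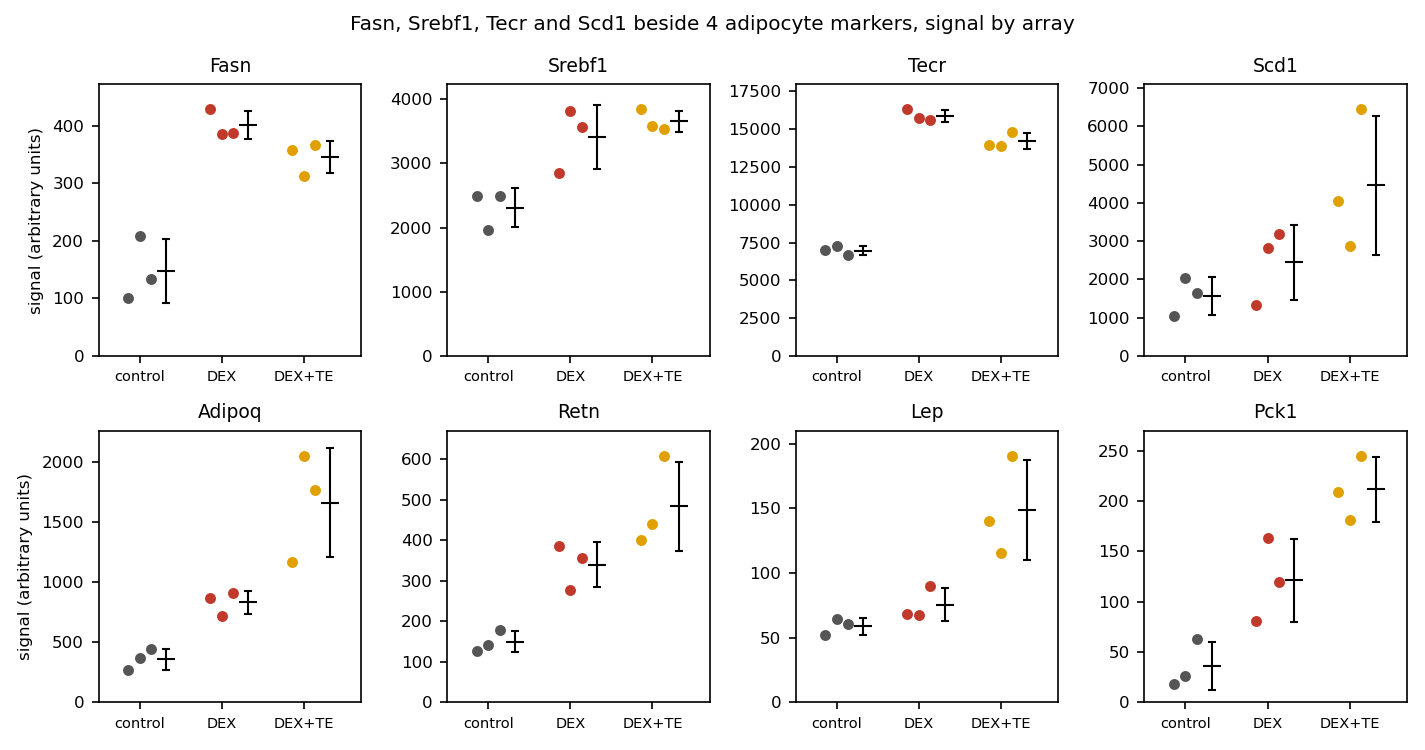
Signal per array, in arbitrary units on linear axes from 0, of Fasn, Srebf1, Tecr and Scd1 (top) and of the adipocyte-enriched genes Adipoq, Retn, Lep and Pck1 (bottom), with the mean and SD of 3 mice per group. Fasn and Tecr are highest in DEX muscle, and Srebf1, Scd1 and the genes of the lower row have their highest mean in DEX+TE muscle.

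Likeness of pattern was described by Pearson's r of the log2 signal over the 9 arrays, among 2786 other genes of at least moderate signal and spread. Since the 9 arrays form 3 groups, a high r reflects largely shared group differences, and no test was made. The 5 genes most like Fasn were Pgd (r = 0.97), Lrrn1 (0.97), Cuzd1 (0.96), Nnt (0.96) and Zfp423 (0.96), whose mean signals were all lowest in control and highest in DEX muscle, as Pgd with 459, 745 and 727 in control, DEX and DEX+TE. Among the members, Fasn was most like Acaca (0.84) and Acly (0.84), then Srebf1 (0.69) and Scd1 (0.62), and least like Gpam (-0.68).

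The 5 genes most like Scd1 were Pi4k2b (r = 0.93), Spire2 (0.92), Exoc3l2 (0.91), Slc12a9 (0.91) and Zcchc3 (0.90), all with means in the order control, DEX, DEX+TE. Slc12a9, for example, had 132, 214 and 266. Among the members, Scd1 was most like Acly (0.70) and Srebf1 (0.68) and least like Me1 (-0.70).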

How the data were processed

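Total RNA (250 ng) of tibialis anterior muscle was hybridised to GeneChip 3′ arrays, 1 per mouse. The deposited values are linear intensity per probe set, scaled by the authors so that the trimmed mean of each array (2% left out at each end) is equal. This is not the Robust Multi-array Average of the study's methods, whose output was not used here. Precision is limited by 3 arrays per group.

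Probe sets were named through the platform annotation, of which 34945 had 1 symbol, 932 several and 9160 none, and 64 manufacturer controls were left out. Values were log2-transformed without an offset and fitted in limma 3.58.1 (R 4.3.3) with 3 group means over all 9 arrays. P-values were adjusted by Benjamini-Hochberg over 29269 probe sets, after a floor of 50. The thresholds are those of the study's methods. Rank Product was the alternative test, with a false discovery rate from 100 permutations. Both were tested on simulated data. Python 3.11 was used for other steps. The members and lists were chosen with earlier results of these data known. The rule for named genes was every member, each list gene that passed or otherwise up to 3 with the largest fold change, and the 5 genes most like Fasn and Scd1 (mean signal of at least 100, SD of log2 signal of at least 0.3). Schwann cell, fibroblast, leukocyte and endothelial marker lists were also run.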

Additional observations from a re-analysis of the deposited data

How the results depend on the processing

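Settings were changed one at a time. Over the 10 members and 3 comparisons, 501 of 531 recomputed log2 fold changes kept their direction and their side of the threshold, 9 passed it and 21 changed sign, all of these at a value with an interval that spans 0. The members called in DEX against control went from 0 to 1 (Fasn) with a group mean of at least 100, with an offset of 16 and with a mean-variance trend in limma, where the adjusted p was 0.0254, 0.0418 and 0.00331. In DEX+TE against control they went from 0 to 1 (Fasn) with a group mean of at least 100 and to 3 (Fasn, Scd1 and Srebf1) with the trend. Leaving out 1 array gave 0 to 1 member in both comparisons against control, the 1 being Fasn without control replicate 2, and 0 in DEX+TE against DEX.

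Over all probe sets, the 147, 4 and 111 calls (DEX against control, DEX+TE against DEX, DEX+TE against control) became 53, 0 and 44 with no filter, and 341, 0 and 222 with a group mean of at least 100. With the trend the first and last became 563 and 409, with only the 6 arrays compared the counts were 18, 0 and 55, and Rank Product gave 82 and 48 in the first pair. Leaving out 1 array gave 50 to 96, 0 to 5 and 28 to 86. With a replicate block the counts were 41, 0 and 30 and no member was called, and the replicate numbers are mere names here, since deviations of same-numbered arrays correlated between -0.021 and 0.048.

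Signs turned as follows, in log2 fold change. With arrays centred on their medians, Scd2, Acly, Srebf1 and Gpam had -0.10, -0.22, -0.14 and -0.20 in DEX+TE against DEX, and Me1 had 0.089 in DEX against control. With the mean over all probe sets of a gene, dim ones included, Acaca, Acacb and Acly had 0.21, 0.11 and -0.12 in DEX+TE against DEX, and Acacb and Elovl6 had -0.14 and 0.064 in DEX against control. With quantile normalization, Acacb had 0.016 in DEX+TE against control. Leaving out 1 array gave -0.0505 to 0.052 for Acacb in DEX+TE against control, -0.072 to 0.12 for Acly, -0.014 to 0.20 for Srebf1 and -0.023 to 0.17 for Gpam in DEX+TE against DEX, and -0.70 to 0.36 for Elovl6 and -0.059 to 0.077 for Me1 in DEX against control. Except where the alternative itself adds dim probe sets or drops an array, the cause was not tested. Signals near 50 limit Elovl6 and the dimmer sets of Acly and Acaca.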
